A study of Homo sapiens with 6 samples.

Results

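The contractile apparatus of the myofibroblast was followed through 10 genes, ACTA2, TAGLN, CNN1, CNN2, MYL9, MYH9, MYH10, TPM1, TPM2 and CALD1. They were chosen by name from the 60605 genes with an Ensembl identifier, with earlier results of these data known. The cells were LX-2, a human hepatic stellate cell line that grows in culture in a partly activated state. For 24 h they received medium conditioned by HCT116, a human colorectal carcinoma line, that carried either an empty vector (Vector-CM, n = 3) or an FGFBP1 expression construct (FGFBP1-CM, n = 3). Both groups therefore shared the stellate line, the tumor line and the time, and differed in the FGFBP1 made by the tumor cells. FGFBP1 is a secreted protein that carries fibroblast growth factors out of the matrix. Since the construct was in the tumor cells, the RNA of the stellate cells does not check the labels. The RNA of 6 LX-2 samples was sequenced, and the question put to the contractile genes was whether their RNA differed between the media.

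A quiescent stellate cell stores retinoids. When it is activated it becomes a contractile myofibroblast and assembles stress fibers, bundles of actin filaments that slide on nonmuscle myosin II. Each myosin II motor is a pair of heavy chains (MYH9 or MYH10) with regulatory light chains such as MYL9, and phosphorylation of the light chain by myosin light chain kinase or by the RhoA and ROCK pathway switches the motor on. Tropomyosins (TPM1, TPM2) lie along the actin filament, while caldesmon (CALD1), the calponins (CNN1, CNN2) and transgelin (TAGLN, also called SM22) bind actin and restrain or stabilize it. ACTA2 encodes alpha smooth muscle actin, the usual marker of activated stellate cells. Many of these genes are targets of serum response factor (SRF), which binds the CArG box and works with the coactivators MRTFA and MRTFB.

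Since SRF is the regulator most often named for this gene set, the upstream sequences were searched for its site. RefSeq upstream sequences (GRCh38.p14) were found for 8 of the 10 genes, with 13 annotated starts, and not for TAGLN and MYL9. The strict form of the CArG box was searched, which is CC, then only A or T, then GG. Within the 250 bases before the start it was found at 1 of the 13 starts, that of CNN2. Among 35116 starts of all genes it was found at 1.16%. The site of EGR1, a factor that growth factor receptors induce, was searched as GCGNGGGCG on both strands and was found at 2 of the 13 starts, those of CNN2 and the upstream start of ACTA2, against 8.41% of all starts. A match is a string of letters and was not tested for binding. The stretches from base -250 to base -71 relative to the start are shown for CNN2 (chr19:1026358-1026537, plus strand), the only one of the 8 matched genes with the strict CArG box, for TPM2 (chr9:35690127-35690306, minus strand), the member next to TAGLN in the size of its decrease, and for the downstream start of ACTA2 (chr10:88952844-88953023, minus strand). They are written 5′ to 3′ along the gene, and the capitals mark the strict CArG box, which spans bases -89 to -80. The ACTA2 stretch holds ccctatatgg, which has a C among its inner bases. The strict search could not match it, so its result does not show that ACTA2 lacks an SRF site.
CNN2: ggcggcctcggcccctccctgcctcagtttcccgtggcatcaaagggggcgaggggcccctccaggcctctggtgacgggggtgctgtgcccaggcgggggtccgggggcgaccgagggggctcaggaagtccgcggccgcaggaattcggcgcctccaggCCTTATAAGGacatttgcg
TPM2: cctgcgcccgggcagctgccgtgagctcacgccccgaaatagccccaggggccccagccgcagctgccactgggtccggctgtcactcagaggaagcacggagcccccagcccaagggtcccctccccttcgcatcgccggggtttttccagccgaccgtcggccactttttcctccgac
ACTA2: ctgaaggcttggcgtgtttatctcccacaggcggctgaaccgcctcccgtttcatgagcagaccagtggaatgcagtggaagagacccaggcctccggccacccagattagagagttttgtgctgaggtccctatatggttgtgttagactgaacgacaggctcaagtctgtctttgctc

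Total counts ranged from 13992930 to 18494548 per library. FGFBP1-CM replicate 1 stood apart from the other libraries, with a chi-square per degree of freedom of 8.26 to 17.3 against each of them, where the other pairs had 2.63 to 9.67. All 9 stellate and fibroblast markers passed the filter on low counts. Their summed level was 3237 to 3472 CPM (counts scaled to library size) in Vector-CM and 2503 to 3037 CPM in FGFBP1-CM, and most of it was VIM. Some of them had few reads: THY1 had 15 to 23 counts in a library, LUM had 16 to 44 and DCN had 36 to 80. The 4 markers of the quiescent cell summed to 4.78 to 5.26 CPM under Vector-CM and 4.38 to 5.34 CPM under FGFBP1-CM. RELN gave most of this with 57 to 84 counts in a library, as many as ACTA2, GFAP had 5 to 13 counts, DES had 0 to 4 counts and LRAT had none. The striated muscle list summed to 0.605 to 1.26 CPM over all libraries, and none of its 6 genes passed the filter. The smooth muscle list summed to 172 to 189.6 CPM under Vector-CM and 161 to 171 CPM under FGFBP1-CM, nearly all of it SMTN. Of its 4 tested genes, SMTN had an estimate below 0 and MYH11, LMOD1 and SYNPO2 had estimates above 0, with a median log2 fold change of 0.08, and MYOCD had 2 to 8 counts in a library. The colorectal list summed to 215 to 239 CPM in Vector-CM and 206 to 222 CPM in FGFBP1-CM, nearly all of it KRT8 and KRT18, while CEACAM5 had no count and EPCAM had 4 to 12 counts. The hepatocyte list was lower in FGFBP1-CM, at 18.1 to 27.9 CPM against 40.3 to 42.9 CPM, with 3 of its 5 tested genes past the threshold in edgeR, and its part in the results was not tested. The endothelial and leukocyte lists summed to 10.6 to 13.3 CPM and 1.29 to 2.26 CPM over all libraries.

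Estimates for the contractile genes lay mostly below 0, and 0 of the 10 passed the threshold. Of the 10 genes, 9 had a log2 fold change (FGFBP1-CM over Vector-CM, also called the log2 difference here) below 0, where 49.1% of the 16582 tested genes did, and CALD1 was the exception. Their median log2 fold change was -0.18, against 0.00448 over all tested genes. The stellate and fibroblast markers had estimates below 0 for 8 of 9 genes, with a median of -0.26, none past the threshold, and -0.26 for VIM and -0.50 for SPARC, and their part in the result was not tested. None of the 10 passed an adjusted p of 0.05 in edgeR's quasi-likelihood test, where 0.121% of all genes did. At an unadjusted p under 0.05, 6 of the 10 were lower in FGFBP1-CM and 0 were higher, against 10.6% of all genes that were lower and 11.3% that were higher. The groups did not overlap for 5 of the 10, all of them lower in FGFBP1-CM, against 13.0% of all genes. DESeq2 called 2 of the 10 lower (TAGLN and TPM2), where it called 4.38% of the genes to which it gave an adjusted p. Since the 10 genes were chosen with earlier results of these data known, these comparisons with all genes are descriptions and not tests. In RNA from whole cultures, fewer cells of a type and less RNA per cell cannot be told apart. Nothing in the labels says whether the libraries came from separate cultures, so the p-values measure the spread between these libraries.

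**Figure D1:**
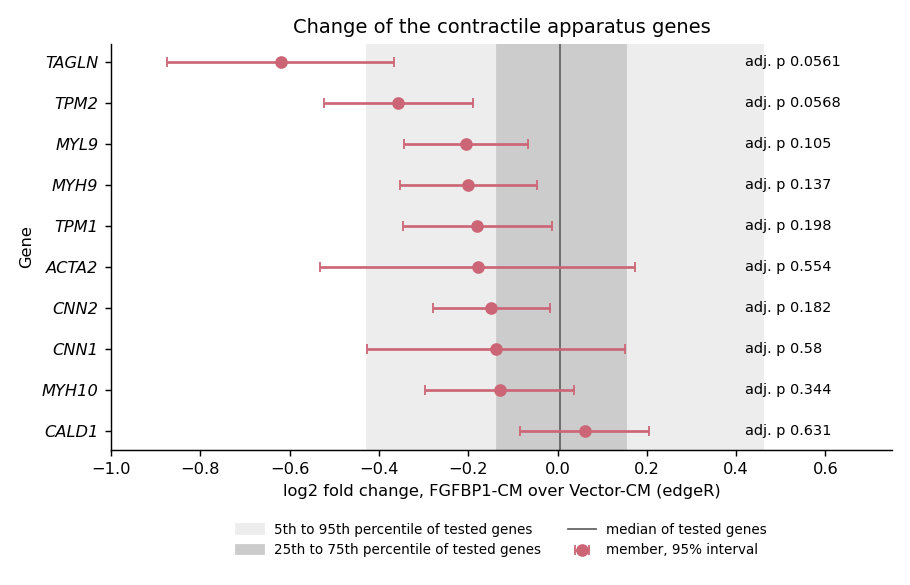
Log2 fold change (FGFBP1-CM over Vector-CM, edgeR) of each of the 10 genes with its unadjusted 95% interval and adjusted p, over bands that hold the middle 50% and 90% of the 16582 tested genes. TAGLN at -0.62 lies outside the 90% band, which starts at -0.43, and TPM2 at -0.36 is next to it. Only MYH10 and CALD1 lie inside the 50% band, which starts at -0.136. CALD1 at 0.06 is the only gene to the right of 0.

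ACTA2 (ENSG00000107796, chromosome 10, 88935074 to 88991339, minus strand, 10 exon blocks) had the fewest reads of all members. Loci and exon overlaps are given from GENCODE release 29 (GRCh38) by identifier, while the submitters name another build, so the gene models counted may differ. Vector-CM replicates 1, 2 and 3 held 81, 59 and 81 reads of ACTA2, and FGFBP1-CM replicates 1, 2 and 3 held 84, 70 and 61. The corresponding levels were 4.53, 4.27 and 5.45 CPM against 4.43, 4.40 and 3.74 CPM, in the same order. The groups overlapped, and only FGFBP1-CM replicate 3 lay below the Vector-CM libraries. The log2 difference was -0.18 (SE 0.164, edgeR adjusted p of 0.554), with a 95% interval of -0.53 to 0.17, which holds changes of either sign. The estimate was -0.07 without Vector-CM replicate 3 and -0.11 without FGFBP1-CM replicate 3. It was -0.25 without Vector-CM replicate 2, -0.22 without replicate 1 of either group and -0.21 without FGFBP1-CM replicate 2. Exons of ACTA2 share 516 bp with the antisense gene ACTA2-AS1 and 380 bp with FAS on the opposite strand. Since the actin genes have near-identical coding sequences, reads could also be split between them.

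TAGLN and the calponins bind the actin filament, and TAGLN had the largest decrease of the 10 genes. TAGLN (ENSG00000149591, chromosome 11, 117199321 to 117204782, plus strand, 4 exon blocks) had 312, 291 and 318 counts in Vector-CM and 214, 216 and 230 counts in FGFBP1-CM. Its level was 17.4, 21.1 and 21.4 CPM under Vector-CM, or 20.0 ± 2.20 CPM (SD, n = 3). Under FGFBP1-CM it was 11.3, 13.6 and 14.1 CPM, or 13.0 ± 1.501 CPM (SD, n = 3). Each FGFBP1-CM library lay below each Vector-CM library. The log2 fold change was -0.62 (SE 0.118), a change of -35.0% in level. Its adjusted p of 0.0561 (edgeR) just missed the threshold, and its unadjusted p ranked 40th among 16582 genes. TAGLN passed without any 1 of the FGFBP1-CM libraries, with an adjusted p of 0.0449, 0.0216 and 0.026 without replicates 1, 2 and 3 (edgeR), fits in which 0.468%, 5.38% and 2.03% of all genes passed. It did not pass without any 1 Vector-CM library (adjusted p of 0.0758 to 0.235, edgeR). It passed in DESeq2 (adjusted p = 0.00293) and after correction for GC content and transcript length (adjusted p = 0.0478, edgeR), where 0.820% of all genes did. In GENCODE release 29, exons of TAGLN share 446 bp with PCSK7 on the opposite strand. The deposited FPKM imply more exon bases for TAGLN than the whole of this locus holds, so the gene model behind the counts was another one and its overlap is not known.

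CNN1 (ENSG00000130176, chromosome 19, 11538717 to 11550323, plus strand, 10 exon blocks) encodes the calponin of smooth muscle. It had 154, 111 and 141 counts in Vector-CM and 168, 127 and 112 counts in FGFBP1-CM. The levels of 8.61, 8.04 and 9.48 CPM overlapped with 8.86, 7.98 and 6.87 CPM. Its log2 difference was -0.14 (SE 0.134, edgeR adjusted p of 0.580), with a 95% interval of -0.43 to 0.15. It was -0.07 without Vector-CM replicate 3, -0.23 without FGFBP1-CM replicate 1 and -0.05 without FGFBP1-CM replicate 3. CNN2 (ENSG00000064666, chromosome 19, 1026581 to 1039068, plus strand, 8 exon blocks), the broadly expressed calponin whose upstream sequence held the CArG box, had many more reads. CNN2 was at 95.4, 100.1 and 98.1 CPM under Vector-CM and 90.3, 86.4 and 88.2 CPM in FGFBP1-CM, and the groups did not overlap. Its log2 difference was -0.15 (SE 0.061, edgeR adjusted p of 0.182), close to that of CNN1 but with an interval that was narrower, -0.28 to -0.02.

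The myosin II genes included MYH9, the most abundant of the 10 in reads and per length. MYH9 (ENSG00000100345, chromosome 22, 36281277 to 36388067, minus strand, 44 exon blocks), the heavy chain of nonmuscle myosin IIA, had 40676 to 51893 counts in a library. It was at 2901, 3122 and 2893 CPM in Vector-CM and at 2500.4, 2766 and 2494 CPM in FGFBP1-CM. Each FGFBP1-CM library was lower than each Vector-CM library. The log2 difference was -0.20 (SE 0.0714, edgeR adjusted p of 0.137), a change of -13.0% in level. MYL9 (ENSG00000101335, chromosome 20, 36541484 to 36551447, plus strand, 4 exon blocks), a regulatory light chain, was at 118, 127 and 125 CPM in Vector-CM and 107, 112 and 102 CPM in FGFBP1-CM. The groups did not overlap, and its log2 difference was -0.21 (SE 0.0642, edgeR adjusted p of 0.105), next to that of MYH9. MYH10 (ENSG00000133026, chromosome 17, 8474205 to 8630761, minus strand, 44 exon blocks), the heavy chain of nonmuscle myosin IIB, was at 286, 282 and 282 CPM in Vector-CM. In FGFBP1-CM it was at 235, 292 and 250.1 CPM, so replicate 2 was above and replicates 1 and 3 were below all Vector-CM libraries. The log2 difference was -0.13 (SE 0.077, edgeR adjusted p of 0.344). The estimate moved to -0.06 when FGFBP1-CM replicate 1 was left out and to -0.22 when replicate 2 was.

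Among the thin filament regulators, the estimate was below 0 for TPM2 and TPM1 and slightly above 0 for CALD1. TPM2 (ENSG00000198467, chromosome 9, 35681992 to 35690121, minus strand, 8 exon blocks) had 1775, 1487 and 1479 counts in Vector-CM and 1436, 1416 and 1218 counts in FGFBP1-CM. Its level was 99.2, 107.7 and 99.5 CPM in Vector-CM, or 102.2 ± 4.84 CPM (SD, n = 3). It was 75.7, 89.0 and 74.7 CPM in FGFBP1-CM, or 79.8 ± 7.99 CPM (SD, n = 3). The groups did not overlap, and FGFBP1-CM replicate 2 was the nearest to Vector-CM. The log2 fold change of TPM2 was -0.36 (SE 0.0774), a change of -21.9% in level, with an adjusted p of 0.0568 (edgeR) that also just missed the threshold. TPM2 passed without FGFBP1-CM replicate 2 (adjusted p = 0.0112, edgeR), in DESeq2 (adjusted p = 0.00655) and after correction for GC content and length (adjusted p = 0.0478, edgeR). It did not pass without any 1 of the other 5 libraries (adjusted p of 0.0646 to 0.235, edgeR).

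TPM1 (ENSG00000140416, chromosome 15, 63042632 to 63071915, plus strand, 12 exon blocks) was at 220.1, 217 and 214 CPM in Vector-CM and at 172, 215 and 187 CPM in FGFBP1-CM. FGFBP1-CM replicate 2 was within the Vector-CM range and the other two were below it. Its log2 difference was -0.18 (SE 0.0776, edgeR adjusted p of 0.198), and without FGFBP1-CM replicate 2 it was -0.27 and passed (adjusted p = 0.0448, edgeR). Leaving out FGFBP1-CM replicate 1 gave -0.11. Exons of TPM1 share 2070 bp with the antisense gene TPM1-AS. CALD1 (ENSG00000122786, chromosome 7, 134744252 to 134970728, plus strand, 26 exon blocks) was at 158, 145 and 159 CPM in Vector-CM and at 152, 169 and 161 CPM in FGFBP1-CM, and the groups overlapped. Its log2 difference was 0.06 (SE 0.067, edgeR adjusted p of 0.631), with a 95% interval of -0.08 to 0.21. That interval overlapped those of MYL9 (-0.34 to -0.07) and MYH9 (-0.35 to -0.05) and not that of TPM2 (-0.52 to -0.19). Differences between genes were not tested. Fold changes over all genes followed GC content (Spearman rho -0.206 across genes), and after correction for GC content and length the estimate of CALD1 was 0.01. It was 0.02 without Vector-CM replicate 2, 0.02 without FGFBP1-CM replicate 2 and 0.10 without FGFBP1-CM replicate 1. The counts are per gene, so the muscle and nonmuscle splice forms of TPM1, TPM2 and CALD1 were not separated.

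**Figure D2:**
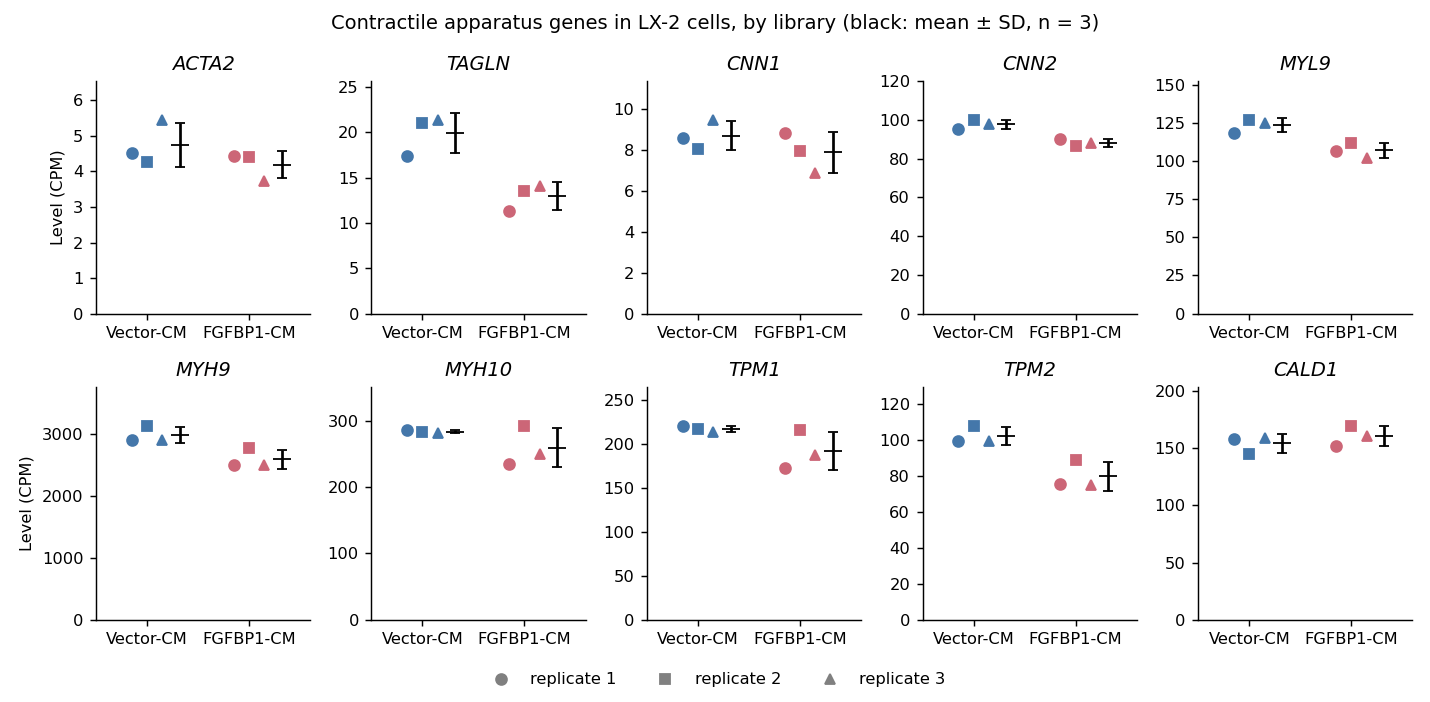
Level (CPM, axis from 0) of each gene in each of the 6 libraries, with circles, squares and triangles for replicates 1, 2 and 3 and the mean ± SD of each group (n = 3) in black. The groups are separate for TAGLN, CNN2, MYL9, MYH9 and TPM2, and for MYH10 and TPM1 the square of FGFBP1-CM replicate 2 sits among or above the Vector-CM points.

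The FGFBP1-CM libraries were not alike for these genes. When each gene was centred on its mean log2 level over the 6 libraries, the median of the 10 genes was -0.13, -0.02 and -0.16 in FGFBP1-CM replicates 1, 2 and 3. It was 0.06, 0.10 and 0.10 in Vector-CM replicates 1, 2 and 3. Of the 10 genes, 5 were lowest of all libraries in FGFBP1-CM replicate 3, and 3 were lowest in replicate 1. CNN2 was lowest in FGFBP1-CM replicate 2, while MYH10 and CALD1 were highest there. The summed counts of the members came to 0.382% to 0.408% of a Vector-CM library and 0.340% to 0.375% of an FGFBP1-CM library. Most of this sum was MYH9, which averaged 2972 CPM under Vector-CM and 2587 CPM under FGFBP1-CM. Without FGFBP1-CM replicate 1, the library that stood apart over all genes, the median log2 fold change of the 10 genes was -0.19. Without FGFBP1-CM replicate 2 it was -0.23, and TAGLN, TPM2 and TPM1 passed the threshold, in a fit that called 911 of 16926 genes (5.38%) where all libraries gave 20 of 16582. With any 1 library left out, 9 of the 10 genes stayed lower in FGFBP1-CM and CALD1 stayed above 0.

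Levels of different genes were compared per length, as FPKM, over the 6 libraries. MYH9 had the highest level, 310.7 ± 23.8 FPKM (SD, n = 6), and its lowest library (281 FPKM) was far above the highest of any other member. MYL9 followed at 40.8 ± 3.01 FPKM, and its range did not meet that of MYH10, at 30.0 ± 2.18 FPKM. MYH10, TPM2 (28.4 ± 3.90 FPKM) and CNN2 (25.5 ± 1.31 FPKM) were neighbours whose ranges overlapped. CALD1 at 15.9 ± 0.866 FPKM and TPM1 at 14.8 ± 1.24 FPKM also overlapped. At the bottom were CNN1 at 2.92 ± 0.309 FPKM, TAGLN at 2.50 ± 0.599 FPKM and ACTA2 at 1.496 ± 0.173 FPKM, and each overlapped the next.

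The order in the middle rests on the gene length behind the FPKM. The deposited FPKM imply a length of 13765 bases for TPM1, 9844 for CALD1 and 6550 for TAGLN. The longest coding transcripts of these genes in GENCODE release 29 have 3957, 4281 and 2166 bases. With that transcript as the length, TPM2 rose to the 2nd place at 65.1 ± 8.92 and TPM1 to the 3rd at 51.4 ± 4.32 CPM per kilobase, while MYH9 stayed at the top with 367 ± 28.1 and ACTA2 at the bottom with 3.30 ± 0.381. TAGLN, at 7.57 ± 1.81, then came before CNN1, at 4.48 ± 0.475. Fold changes between the groups do not depend on this choice.

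**Figure D3:**
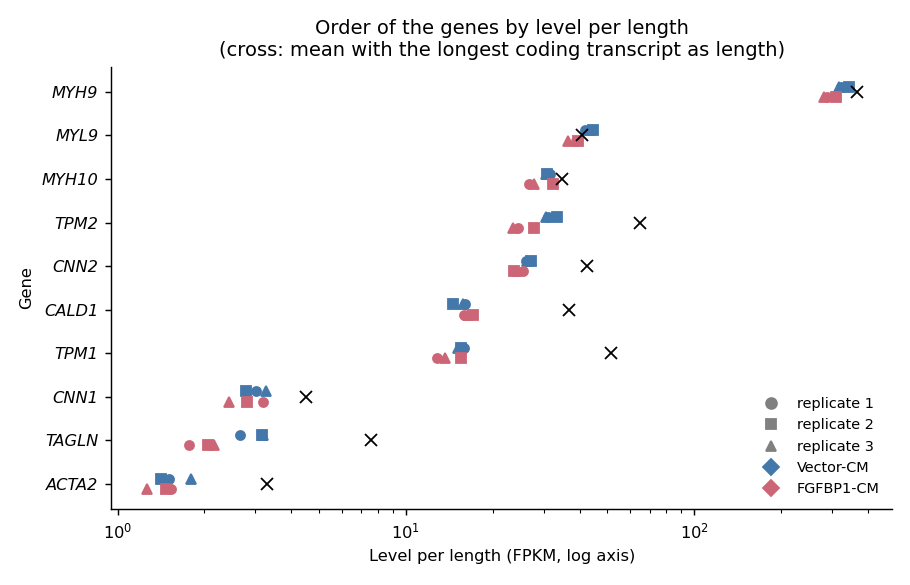
Level per length of each gene (FPKM, log axis) in the 6 libraries, in the order of the mean, with crosses for the mean when the longest coding transcript is taken as the length. MYH9 at 310.7 FPKM lies above all others, ACTA2, TAGLN and CNN1 lie below 4 FPKM, and the crosses lie to the right of the points for all genes except MYL9.

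Within families, the share of each gene in the summed FPKM of its family was compared between the media (8 shares, exact permutation test, two-sided, smallest possible p 0.1). ACTA2 made up 0.101% ± 0.0139 of the FPKM of ACTA2, ACTB and ACTG1 in Vector-CM and 0.103% ± 0.0128 in FGFBP1-CM (SD, n = 3), so nearly all actin RNA of these cells was cytoplasmic actin in both media. MYH9 made up 90.9% ± 0.410 and 90.4% ± 0.442 of the FPKM of MYH9, MYH10 and MYH14 (SD, n = 3). CNN1 made up 1.55% ± 0.125 and 1.58% ± 0.316 of the calponins (SD, n = 3). For these genes the groups overlapped.

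TPM2 made up 16.3%, 16.3% and 15.5% of the tropomyosin FPKM in the Vector-CM libraries and 13.7%, 15.2% and 13.3% in the FGFBP1-CM libraries, a share 2.00 percentage points lower in FGFBP1-CM. TPM3, which encodes a widely expressed tropomyosin and is not a member, made up 21.6% ± 0.197 and 23.8% ± 1.55 (SD, n = 3), a share 2.19 points higher. Its own level averaged 656 CPM under Vector-CM and 643 CPM under FGFBP1-CM, with a log2 difference of -0.03 (edgeR adjusted p of 0.841). TPM4 had the largest share in both media, 54.4% ± 0.880 and 54.4% ± 1.301 (SD, n = 3), and TPM1 had 7.88% ± 0.428 and 7.79% ± 0.645. The FPKM imply a length of 13765 bases for TPM1, whose longest coding transcript has 3957, so the tropomyosin shares depend on the lengths used. TAGLN made up 0.880%, 0.989% and 1.06% of the FPKM of TAGLN and TAGLN2 in Vector-CM and 0.724%, 0.694% and 0.824% in FGFBP1-CM. The groups did not overlap for the shares of TPM2, TPM3 and TAGLN, with an exact permutation p of 0.1 and an adjusted p of 0.267 each. Libraries in groups of 3 allow no lower p than 0.1.

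**Figure D4:**
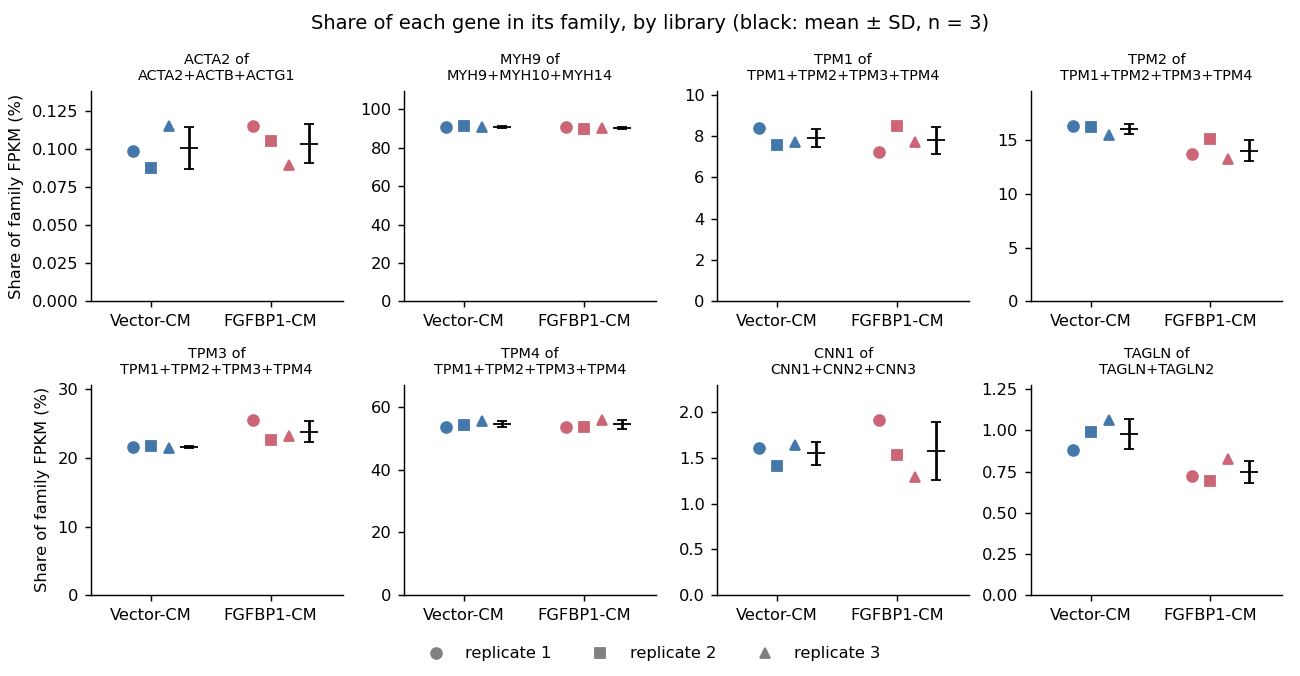
Share (percent, axis from 0) of 8 genes in the summed FPKM of their family in each library, with the mean ± SD of each group (n = 3) in black. The shares of TPM2 and TAGLN are lower and that of TPM3 is higher in each FGFBP1-CM library, while the shares of ACTA2, MYH9, TPM1, TPM4 and CNN1 overlap.

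Other genes of the same machinery were read from the same fit. Of 23 other contractile apparatus genes, 20 were tested, and 0 passed the threshold in edgeR, while 6 were lower and 1 was higher at an unadjusted p under 0.05, where 10.6% of all genes were lower and 11.3% were higher. Their median log2 fold change was -0.12. ACTG1, which encodes cytoplasmic gamma actin, had group means of 4498 ± 132 CPM under Vector-CM and 3730.0 ± 276 CPM under FGFBP1-CM (SD, n = 3), with a log2 difference of -0.27 (SE 0.0742, edgeR adjusted p of 0.0826). FLNA, which encodes the actin crosslinker filamin A, had a log2 difference of -0.21 (edgeR adjusted p of 0.137). ACTG2, smooth muscle gamma actin, was near the floor at 0.598 ± 0.110 CPM and 0.518 ± 0.259 CPM (SD, n = 3). The SE of its log2 difference (-0.23) was 0.408, and the value ran from -0.69 to -0.03 with 1 library left out. SYNPO2, an actin-binding protein of muscle, was higher in each FGFBP1-CM library, with group means of 4.41 ± 0.392 CPM under Vector-CM and 6.02 ± 0.695 CPM under FGFBP1-CM (SD, n = 3), with a log2 difference of 0.44 (SE 0.154, edgeR adjusted p of 0.132).

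All 14 regulators of contraction were tested, and 0 passed, with 4 lower and 1 higher at an unadjusted p under 0.05 (10.6% and 11.3% of all genes) and a median log2 fold change of -0.04. RHOA, the GTPase that drives stress fiber assembly, had group means of 1076 ± 44.8 CPM under Vector-CM and 873 ± 86.9 CPM under FGFBP1-CM (SD, n = 3), with a log2 difference of -0.30 (SE 0.0778, edgeR adjusted p of 0.0754). MYLK, the myosin light chain kinase, had a log2 difference of -0.33 (SE 0.0925, edgeR adjusted p of 0.087). ROCK2, a kinase that acts below RhoA, had 91.3 ± 7.16 CPM under Vector-CM and 109.5 ± 1.47 CPM under FGFBP1-CM (SD, n = 3). It was higher in each FGFBP1-CM library, with a log2 difference of 0.26 (SE 0.0689, edgeR adjusted p of 0.0777). After correction for GC content and length ROCK2 had 0.18 (adjusted p = 0.129, edgeR), RHOA had -0.33 and MYLK had -0.37. Of all 44 tested genes of the 3 lists, DESeq2 called 4, which were RHOA, MYLK, ROCK2 and ACTG1. It called 4.38% of all the genes to which it gave an adjusted p.

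Of the 11 genes of the SRF axis, 10 were tested and 0 passed, with 2 lower and 1 higher at an unadjusted p under 0.05 (10.6% and 11.3% of all genes, so near that background) and a median log2 fold change of -0.07. ZYX, VCL and FHL2, which encode adhesion proteins and are SRF or MRTF targets, had log2 fold changes of -0.20, -0.14 and -0.16, with adjusted p of 0.125, 0.243 and 0.150 (edgeR). After correction for GC content and length, ZYX had -0.12. CCN1, a secreted matrix protein, had -0.07 (adjusted p = 0.621, edgeR). MRTFB had 0.17 (adjusted p = 0.192, edgeR), higher in each FGFBP1-CM library, and 0.11 after the same correction.

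The profile of the 10 genes over the 6 libraries was compared with those of 9854 other tested genes at 10 CPM or more. The measure was the root mean square distance of the centred log2 levels from the median profile of the 10 genes, over 6 libraries. The nearest 5 genes were DELE1, TNPO2, SCARA3, SPC24 and PLAUR, with distances of 0.0167, 0.0195, 0.0203, 0.0232 and 0.0234 on the log2 scale. Their log2 fold changes ran from -0.19 to -0.16, and none passed the threshold (lowest adjusted p = 0.121, edgeR). These 5 genes were picked for their distance to the median profile, so fold changes near those of the members follow from the choice. Among the members themselves, MYL9 (0.026) and MYH9 (0.0351) were nearest to the median profile, and TAGLN (0.254) and CALD1 (0.139) were farthest from it.

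**Figure D5:**
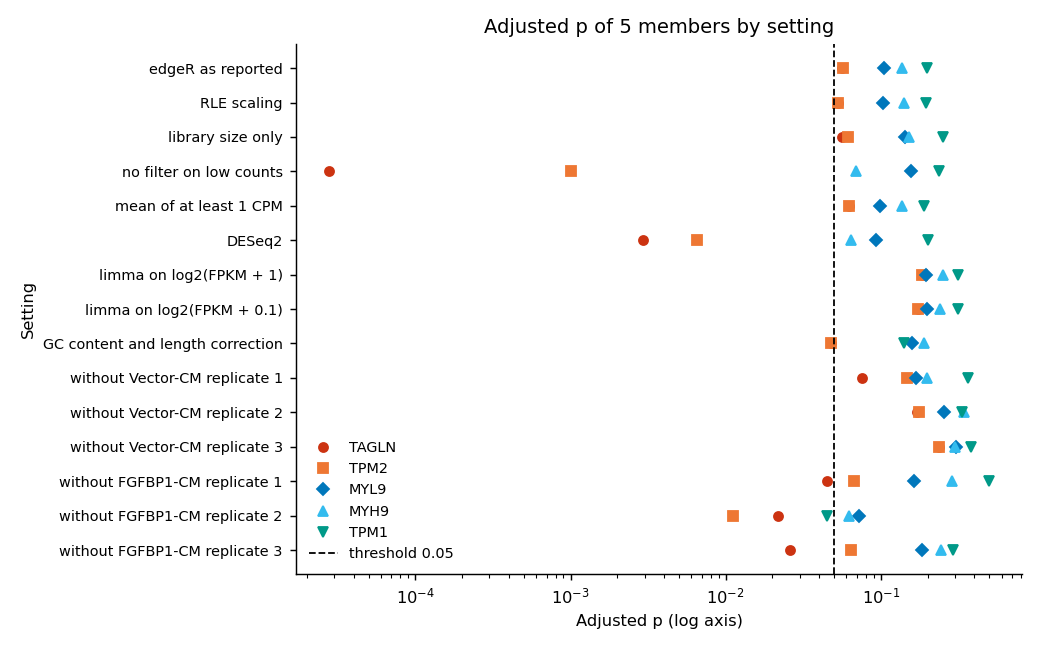
Adjusted p (log axis) of TAGLN, TPM2, MYL9, MYH9 and TPM1 in the reported edgeR fit and under each alternative without a block, with the threshold of 0.05 as a dashed line. TAGLN and TPM2 lie just right of the line as reported and left of it in DESeq2 and with no filter on low counts (where 3.65% of all genes passed), while MYL9 and MYH9 stay to the right throughout.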

How the data were processed

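The 6 libraries were grouped by their sample titles (Vector-CM and FGFBP1-CM, 3 each). The deposited raw counts per gene were made by the authors with HISAT2 2.0.5 for alignment and featureCounts 1.5.0-p3 for counting. The processing notes of the submitters name the build hg18. The annotation release and the strandedness are not given in the sources used here. The same deposited table gives FPKM for every gene. The length they imply was the same in all libraries (within 1%) for 37829 genes. Poly(A) selection and rRNA depletion are both named for the libraries. Coordinates are those of GENCODE release 29 (GRCh38), matched by Ensembl identifier.

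Of 60780 rows, 175 with an identifier of the authors' own were left out (0.0733% to 0.0800% of counts). The test was the quasi-likelihood F-test of edgeR 4.0.16 (R 4.3.3) after filterByExpr and TMM, with Benjamini-Hochberg adjustment across the 16582 genes left. Genes passed at an adjusted p under 0.05. The SE is the log2 fold change divided by the square root of F. Intervals use the t distribution and are not adjusted. Levels are CPM scaled by TMM. A count of 0 allows up to 3 counts, or 0.162 to 0.214 CPM, which covers counting error only. No pair of libraries agreed within sampling noise, so none were merged.

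The 10 genes and the lists were chosen with earlier results of these data known. Named were the 10 genes; from each of the 3 other lists, any gene past the threshold, the 3 with the largest absolute log2 fold change and the 2 with the highest level; and the 5 nearest profiles. Other genes are named only for a family share or as markers. Alternatives were RLE scaling, library size only, other filters on low counts, the Wald test of DESeq2 1.42.0, limma 3.58.1 on log2(FPKM + 1) and log2(FPKM + 0.1), a block for the replicate number, a loess correction (span 0.3) for GC content and transcript length, and leaving out each library. The routines were tested on simulated counts. Promoter sequences are from RefSeq.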

Additional observations from a re-analysis of the deposited data

How the results depend on the processing

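In the 16 alternatives the direction of each of the 10 genes was kept, and their median log2 fold change ranged from -0.23 to -0.13. ACTA2, CNN1, CNN2, MYL9, MYH9, MYH10 and CALD1 passed in none of them, TAGLN passed in 8 (adjusted p of 2.76e-05 to 0.235), TPM2 in 5 (0.00101 to 0.235) and TPM1 in 1 (0.0448 to 0.501). Against 0 of the 10 genes (6 at an unadjusted p under 0.05), 2 passed with no filter on low counts (3.65% of all genes). In DESeq2 (4.38% of all genes) and after GC content and length correction (0.820%) 2 also passed, each time TAGLN and TPM2. With 1 library left out 0 to 3 passed, the 3 without FGFBP1-CM replicate 2 (5.38% of all genes). Of the 44 other listed genes, 0 passed as reported. At an unadjusted p under 0.05 there were 15, where 10.6% of all genes were lower and 11.3% were higher. With no filter 6 passed (3.65% of all genes) and in DESeq2 4 did (4.38%). With 1 library left out it was 0 to 3, the 3 without FGFBP1-CM replicate 2 (5.38% of all genes).

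Over all genes, 20 passed as reported (9 higher and 11 lower), 38 with RLE scaling (24 higher), 1382 with no filter (834 higher), 11 with a mean of at least 1 CPM (4 higher), 565 in DESeq2 (308 higher), 1 in limma on log2(FPKM + 1), 1 in limma on log2(FPKM + 0.1) and 136 after GC content and length correction (65 higher). With 1 library left out the number ranged from 4 to 911. It was 6, 4 and 5 when Vector-CM replicate 1, 2 or 3 was dropped, and 79, 911 and 344 when FGFBP1-CM replicate 1, 2 or 3 was dropped. The cause was not tested.

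The deviations of libraries with the same number had correlations of -0.116, -0.0161 and 0.145 over 14937 genes, so no pairing was assumed. A fit with the replicate block called 121 genes (67 higher), among them TAGLN (adjusted p = 0.0354) and TPM2 (0.0454), so 2 of the 10, and 2 of the other listed genes (ACTG1 and RHOA). With GC content and length correction and the replicate block 88 passed (26 higher), with 1 of the 10 (TAGLN) and 2 of the other listed genes (MYLK and RHOA).

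With family shares taken from CPM, the differences (FGFBP1-CM minus Vector-CM) were -0.626 (TPM2), -1.29 (TPM4) and -0.646 (TAGLN) percentage points. Compared with the differences from FPKM, that of TPM2 was smaller in size, and those of TPM4 and TAGLN were larger. Shares from CPM do not use the lengths behind the FPKM, so genes with longer transcripts weigh more in them. Over the fits that left out 1 library, the sign of the difference in FPKM share for ACTA2, TPM1, TPM4 and CNN1 was not stable. For ACTA2, with at most 84 counts in a library, and CNN1, with at most 168, depth limits the precision of the fold change.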
